A study of Mus musculus with 8 samples.

Results

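The genes described are the nuclear-encoded subunits of the mitochondrial respiratory chain and ATP synthase, with cytochrome c and the assembly factors whose symbols begin like those of the subunits. They were chosen by gene symbol, with earlier results of these data known. Pseudogene symbols were left out. The symbols were those starting with Nduf, Sdhaf, Uqcr, Cox4 to Cox8 or Atp5, the 4 genes Sdha to Sdhd, and Cyc1 and Cycs. This gave 94 genes of the 18820 tested, comprising 34 complex I subunits, 7 complex I assembly factors, 8 complex II genes, 9 genes of complex III with cytochrome c, 19 complex IV genes and 17 ATP synthase genes. A feature is a probe set of the array, and the feature with the highest mean was used for the 26 members that had more than 1. Cox7c, Ndufa13 and Uqcrc2 were present only in features shared with other gene symbols and were not analysed here, and neither were the 13 subunits encoded by mitochondrial DNA.

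The respiratory chain passes electrons from NADH and succinate to oxygen and pumps protons across the inner mitochondrial membrane. Complex I takes electrons from NADH and complex II from succinate, coenzyme Q carries them to complex III, cytochrome c carries them to complex IV, and ATP synthase uses the proton gradient to make ATP. Acinar cells of the pancreas make and export large amounts of digestive enzymes and depend on mitochondrial ATP for protein synthesis, calcium pumping and secretion.

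The samples were pancreas of C57BL/6J background mice, with 4 wild type and 4 Sel1L knockout arrays, and the question was how gene expression changes when Sel1L is lost. Sel1L is the adaptor of the Hrd1 ubiquitin ligase, which clears misfolded proteins from the endoplasmic reticulum. All mice had both alleles of Sel1l floxed at exon 6, per the labels' protocols (Sel1Lflox/flox), and the knockout mice alone carried ERCre, a tamoxifen-activated Cre recombinase under an actin promoter. The controls called wild type were ERCre-negative littermates, and both groups, aged 8 to 20 weeks, received 5 μl per g of a 5 mg/ml tamoxifen solution on each of 3 days. Loss of Sel1L therefore cannot be told apart from the presence of active Cre, nor loss in pancreas from loss elsewhere in the body. The labels do not say that the numbered replicates are separate animals, so the p-values describe sample spread that may be technical. In whole pancreas, fewer cells of a type and less RNA per cell cannot be told apart.

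All values are on a log2 scale, a difference is knockout minus wild type, and its error is the standard error (SE) from limma, a linear model fitted to all genes. A gene was called when its p-value, adjusted by the Benjamini-Hochberg method over all 18820 genes, was under 0.05. Sel1l measured 12.37, 12.38, 12.38 and 12.39 in the wild type arrays and 11.68, 11.66, 11.70 and 11.45 in the knockout arrays. Its difference was -0.76 (SE 0.0788, limma adjusted p = 0.000196; p = 0.0286 in an exact two-sided permutation test, the lowest possible with 4 and 4 arrays). The array medians lay between 4.94 and 4.99 in wild type and between 5.00 and 5.05 in knockout, so every knockout median was above every wild type median. Wild type replicate 2 stood apart from the other arrays on the principal component that held 20.8% of the variance.

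Calls among the respiratory chain genes ran in both directions. The largest rises were of Cox6a2 and then Cox7a2l, both of complex IV, with smaller rises in complexes I, II, III and IV. Falls were spread over complexes I and IV and ATP synthase. Of the 94 members, 9 were called higher (9.57%) and 14 lower (14.9%) in knockout pancreas, and 71 were not called. Over all genes, 28.7% were called, 16.1% higher and 12.6% lower, so that on the deposited scale the share called lower was near the background. The groups did not overlap for 29 members (30.9%), with 11 above and 18 below, against 32.2% of all genes, of which 17.6% were above and 14.6% below. The median difference was -0.06 over the members and -0.04 over all genes, and 58 of 94 members had a negative difference. The level of a gene bears on this reading, because 84 of the members lay above the median level of all genes. Among all genes above that level, 27.9% were called higher and 10.8% lower with a median difference of 0.13, whereas among the 84 members 10.7% were called higher and 13.1% lower with a median of -0.05.

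The complexes did not have the same balance. Complex II had the highest median difference, at 0.29, with 3 of 8 genes higher and 0 lower. The medians of the other groups lay below 0: -0.05 for complex I subunits, -0.07 for complex I assembly factors, -0.11 for complex III with cytochrome c, -0.12 for complex IV and -0.07 for ATP synthase. In ATP synthase 4 of 17 genes were lower and 0 higher, and in complex IV 6 of 19 were lower and 3 higher. Scaling between the arrays moved these medians, and complex II stayed above 0 and the other 5 groups below 0 on the deposited scale and under each of 3 others (cyclic loess, quantile normalization and arrays centred on their medians). The balance of calls was less fixed. With each array centred on its median, 3 members were higher and 22 lower, and over all genes the share of calls that were higher went from 56.0% to 31.8%, while the median difference of all genes moved from -0.04 to -0.14. On that scale the median of the members was -0.16, close to the -0.14 of all genes. The members lay further below all genes under the other scalings. Their median was -0.11 against -0.0074 after quantile normalization, and -0.0949 against 0.0005 after cyclic loess. The share called was then 25.5% of members against 20.8% of all genes after quantile normalization, and 28.7% against 21.9% after cyclic loess.

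**Figure D1:**
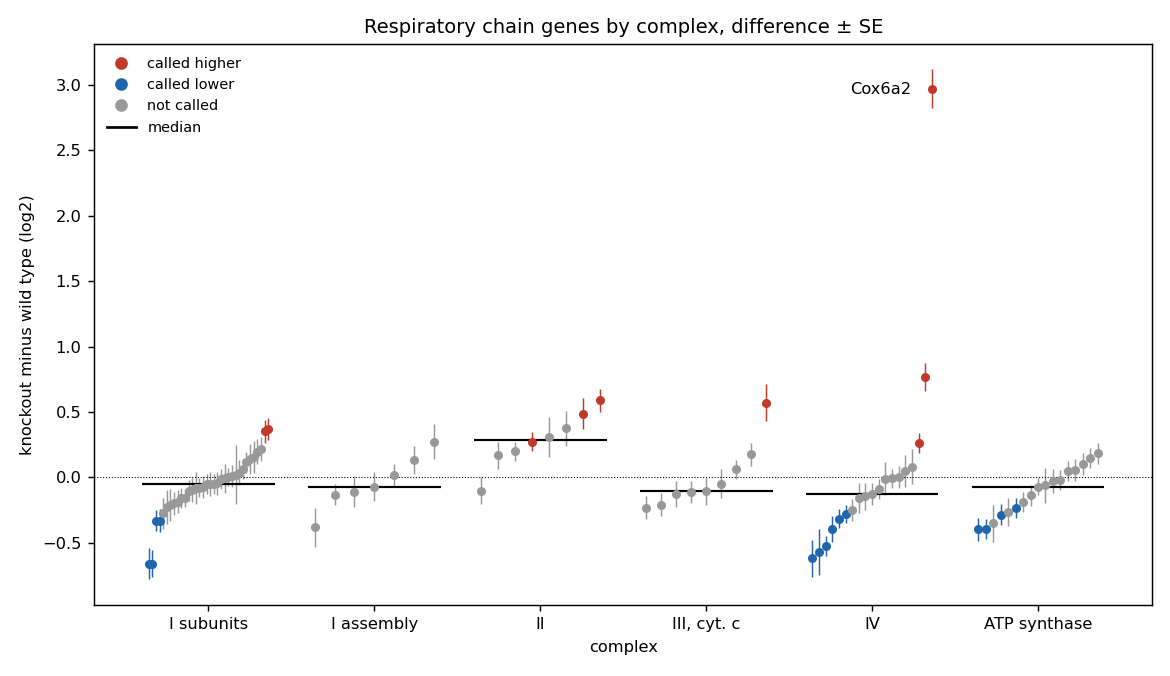
Difference between knockout and wild type (log2, vertical axis) for each of the 94 genes, grouped by complex along the horizontal axis, with bars of 1 SE, the median of each group as a horizontal line and colours for the limma call. Complex II lies mostly above 0 with a median of 0.29, the other medians lie between -0.12 and -0.05, and Cox6a2 stands alone at 2.97.

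**Figure D2:**
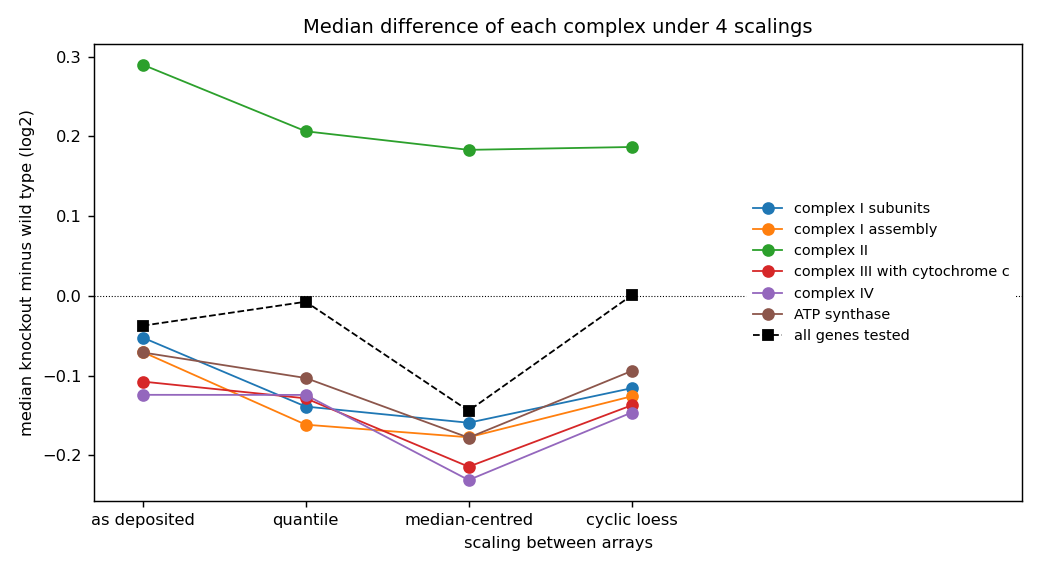
Median difference (log2, vertical axis) of each complex and of all genes tested under 4 ways of scaling the arrays (horizontal axis); lines only join the values of a group. Complex II stays between 0.18 and 0.29, and the other 5 groups of members stay below 0, in each of the 4 scalings.

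Promoters of called members are shown to compare genes that rose with genes that fell. Each is the 250 bases before the RefSeq gene start in GRCm38.p6, and capitals mark matches, on either strand, to the searched motifs. Sdhb (chr4:140961021-140961270, plus strand) and Cox6a1 (chr5:115348959-115349208, minus strand) were called higher, and Ndufb4 (chr16:37654369-37654618, minus strand) was called lower; all 3 hold matches. Cox7a2l (chr17:83514334-83514583, minus strand), called higher, and Ndufb8 (chr19:44555443-44555692, minus strand), called lower, hold none.
Sdhb: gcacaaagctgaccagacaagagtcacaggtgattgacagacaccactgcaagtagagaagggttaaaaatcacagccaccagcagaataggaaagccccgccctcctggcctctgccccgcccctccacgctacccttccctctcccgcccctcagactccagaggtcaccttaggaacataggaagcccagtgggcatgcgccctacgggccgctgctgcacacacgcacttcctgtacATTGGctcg
Cox6a1: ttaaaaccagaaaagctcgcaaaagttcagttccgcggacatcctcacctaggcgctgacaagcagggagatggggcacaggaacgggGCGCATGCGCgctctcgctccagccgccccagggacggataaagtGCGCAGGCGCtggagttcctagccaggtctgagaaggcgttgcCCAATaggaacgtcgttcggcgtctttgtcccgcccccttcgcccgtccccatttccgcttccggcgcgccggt
Cox7a2l: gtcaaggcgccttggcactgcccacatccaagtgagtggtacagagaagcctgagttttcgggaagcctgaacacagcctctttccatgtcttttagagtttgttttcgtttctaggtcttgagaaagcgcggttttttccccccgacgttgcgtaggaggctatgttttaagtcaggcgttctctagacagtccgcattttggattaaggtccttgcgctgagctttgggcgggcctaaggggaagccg
Ndufb4: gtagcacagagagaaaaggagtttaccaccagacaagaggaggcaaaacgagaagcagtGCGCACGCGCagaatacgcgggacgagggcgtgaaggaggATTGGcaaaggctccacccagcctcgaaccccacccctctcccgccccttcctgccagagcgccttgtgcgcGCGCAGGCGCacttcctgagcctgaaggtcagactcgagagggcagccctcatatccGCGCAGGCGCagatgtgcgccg
Ndufb8: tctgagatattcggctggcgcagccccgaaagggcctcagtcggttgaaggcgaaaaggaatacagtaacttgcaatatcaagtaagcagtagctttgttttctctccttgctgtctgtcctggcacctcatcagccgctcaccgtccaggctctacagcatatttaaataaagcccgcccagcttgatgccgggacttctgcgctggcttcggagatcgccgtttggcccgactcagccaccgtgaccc

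The motifs were the core sites of NRF1 and GABP (CCGGAAGT), which are known activators of respiratory chain genes, the core site of YY1 (AANATGGCG) and the CCAAT box (CCAAT). The NRF1 core begins 162 and 117 bases before the start of Cox6a1, and 191, 79 and 22 bases before that of Ndufb4. The same letters thus occur before a gene called higher and before a gene called lower. The Cox6a1 call was lost in 9 of 16 other settings, so the comparison rests on a weak call. Of the 78 members in the promoter table, 14 hold the NRF1 core (17.9%), against 3.74% of all 32851 promoters. It was found in 1 of 7 members called higher, 1 of 12 called lower and 12 of 59 not called. The YY1 core was in 4 members (5.13%, against 1.12% of all promoters), the GABP core in 3 (3.85% against 2.88%) and the CCAAT box in 34 (43.6% against 33.8%). A C/EBP-ATF core (TGATGNAA), added after the values were seen, was in 0 of the 78 members and in 3.45% of all promoters. A match is a description of the letters only.

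Cox6a2, which encodes the heart and skeletal muscle form of a regulatory complex IV subunit, had the largest difference of the 94 genes. It measured 5.14, 5.62, 5.39 and 5.54 in the wild type arrays and 8.10, 8.30, 8.48 and 8.71 in the knockout arrays. All knockout values were far above all wild type values, from a mean of 5.42 ± 0.211 (SD, n = 4) to 8.40 ± 0.256 (SD, n = 4). The difference was 2.97 (SE 0.146), a 7.86-fold rise (limma adjusted p = 4.96e-06), and it stayed between 2.82 and 3.07 in the 16 other settings tried.

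Cox6a1, the form of the same subunit made in most other tissues, measured 9.29, 9.23, 9.20 and 9.07 in wild type and 9.39, 9.46, 9.51 and 9.47 in knockout. Its difference was 0.26 (SE 0.0766, adjusted p = 0.0299), and the call rested on the choice of feature and scaling. The mean of both its features gave an adjusted p of 0.456, its second feature differed by -0.09, and each of the 3 other scalings also ended the call (adjusted p = 0.128 to 0.229).

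The other muscle forms were not called higher. Cox7a1 measured 4.26, 4.37, 4.29 and 4.08 in wild type and 4.27, 4.07, 4.29 and 4.70 in knockout, with overlapping groups and a difference of 0.08 (adjusted p = 0.658). Cox8b measured 4.70, 3.94, 3.94 and 3.90 in wild type and 3.47, 3.68, 3.66 and 3.36 in knockout, and was called lower by -0.57 (SE 0.176, adjusted p = 0.0367). The first wild type array stood above the other 3 for Cox8b, and 6 settings ended the call, namely quantile normalization (adjusted p = 0.108), cyclic loess (0.0827) and leaving out any of the 4 knockout arrays (0.0571 to 0.0936).

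Skeletal and cardiac muscle markers were measured beside these genes. Of 11 such markers, which all lay below the median level, 0 were higher and 3 were lower (Myh2, Ckm and Tnnt3). The share lower was 27.3%, against 12.6% of all genes. Their mean per array was 4.05 to 4.31 in wild type and 3.96 to 4.07 in knockout. The sum of their log2 levels, which restates this mean, was 44.53 to 47.45 in wild type and 43.60 to 44.78 in knockout. Actn2, a sarcomere protein gene, had groups apart, at 4.64, 4.65, 4.51 and 4.12 in wild type and 5.17, 4.69, 4.90 and 4.81 in knockout, and missed the threshold (difference 0.41, adjusted p = 0.0557). The calls in this list depended on the setting: 1 was higher (Actn2) and 1 lower after quantile normalization or cyclic loess, 0 and 5 with centred arrays, 1 and 3 with array weights, and 1 and 2 with the replicate block. Of the 11 markers, 0 were lower without wild type replicate 2, and 1 was lower without wild type replicate 1 or knockout replicate 1, 3 or 4.

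**Figure D3:**
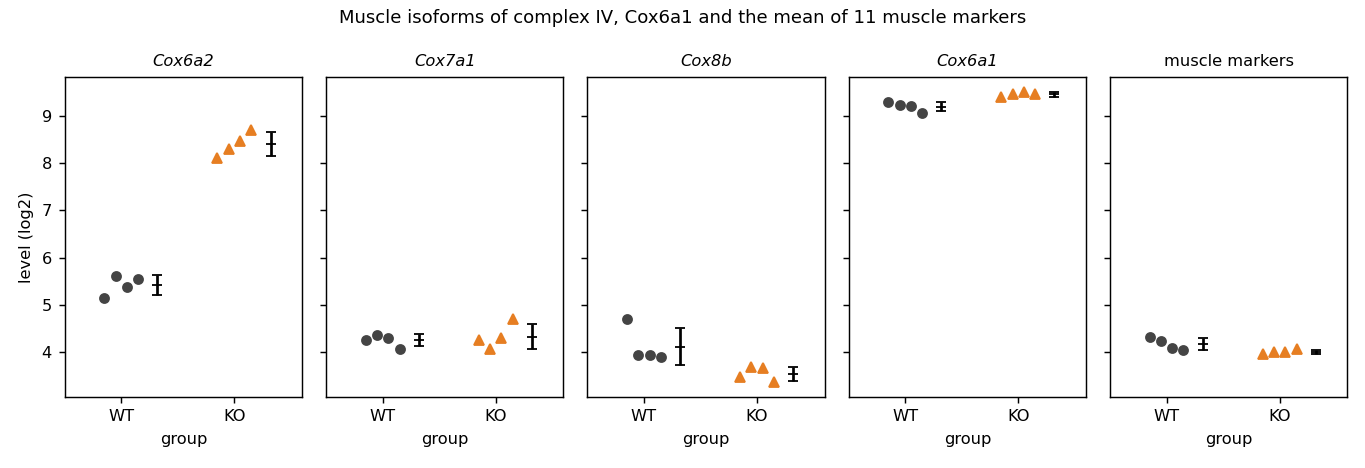
Level (log2, vertical axis) on each of the 4 wild type (WT, circles) and 4 knockout (KO, triangles) arrays for Cox6a2, Cox7a1, Cox8b, Cox6a1 and the mean of 11 muscle markers; dashes with bars are mean ± SD. Cox6a2 goes from 5.14 to 5.62 in wild type up to 8.10 to 8.71 in knockout, while the groups overlap for Cox7a1 and for the mean of the muscle markers.

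Besides Cox8b, 2 complex IV genes of restricted expression were lower. Cox8b and both of these genes lay below the median level of all genes. Of all genes, 1012 of the 2379 called lower lay above that level, against 2622 of the 3027 called higher. Calls lower thus outnumbered calls higher among the dimmer genes. Ndufa4l2, a paralogue of the complex IV subunit gene Ndufa4 that is induced by low oxygen, measured 5.33, 5.78, 5.14 and 5.28 in wild type and 4.57, 4.88, 4.71 and 4.91 in knockout (difference -0.62, SE 0.141, adjusted p = 0.0106). Cox6b2, a form made mainly in testis, measured 5.26, 5.24, 5.18 and 5.11 in wild type and 4.60, 4.69, 4.62 and 4.79 in knockout (difference -0.52, SE 0.0775, adjusted p = 0.0013). The groups did not overlap for either gene, and neither call was lost in the settings in which the gene was tested. Cox4i2, the lung form, differed by -0.16 (adjusted p = 0.303), and the testis forms Cox7b2 and Cox8c differed by -0.01 (adjusted p = 0.962) and -0.15 (adjusted p = 0.304). Of 5 testis and germ cell markers, 0 were called in either direction, with means per array of 3.73 to 3.92 in wild type and 3.52 to 3.71 in knockout.

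Complex II, succinate dehydrogenase, links the citric acid cycle to the respiratory chain. Its mean level over the 8 genes was 7.52, 7.73, 7.56 and 7.62 in wild type and 7.81, 7.95, 7.90 and 7.92 in knockout, so the groups did not overlap. Sdhb, the iron-sulfur subunit, measured 9.99, 9.99, 9.70 and 9.59 in wild type and 10.14, 10.27, 10.39 and 10.42 in knockout, a difference of 0.49 (SE 0.116, 1.40-fold, adjusted p = 0.0129). Sdhc, a membrane anchor that binds heme and coenzyme Q, measured 8.89, 9.09, 9.01 and 9.03 in wild type and 9.23, 9.30, 9.28 and 9.29 in knockout, a difference of 0.27 (SE 0.0735, adjusted p = 0.0218). For both subunits every knockout value was above every wild type value.

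The other 2 subunits had positive differences that missed the threshold. Sdha, the flavoprotein that oxidises succinate, measured 9.49, 9.30, 9.46 and 9.41 in wild type and 9.63, 9.61, 9.64 and 9.57 in knockout, with groups that did not overlap (difference 0.20, adjusted p = 0.0659). Sdhd, the other membrane anchor, measured 7.83, 8.48, 8.32 and 8.62 in wild type and 8.58, 8.67, 8.61 and 8.62 in knockout (difference 0.31, adjusted p = 0.151). The first wild type array was the low one for Sdhd.

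Among the assembly factors of complex II, Sdhaf2, which is needed to attach FAD to Sdha, measured 6.59, 6.71, 6.74 and 6.87 in wild type and 7.27, 7.45, 7.33 and 7.21 in knockout. Its difference was 0.59 (SE 0.0891, adjusted p = 0.00144), with groups apart, and was called in all 16 other settings. Sdhaf1, which helps insert the iron-sulfur clusters of Sdhb, differed by 0.38 (adjusted p = 0.0632), Sdhaf3, which also serves Sdhb maturation, by 0.17 (adjusted p = 0.23), and Sdhaf4, which binds free Sdha, by -0.10 (adjusted p = 0.463). The Sdhc call was lost under each of the 3 other scalings (adjusted p = 0.0684 to 0.206) and without knockout replicate 2, 3 or 4 (0.0539 to 0.0586), and the Sdhb call when arrays were centred (0.0568). In that scaling 1 of the 8 genes was called higher in place of 3.

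**Figure D4:**
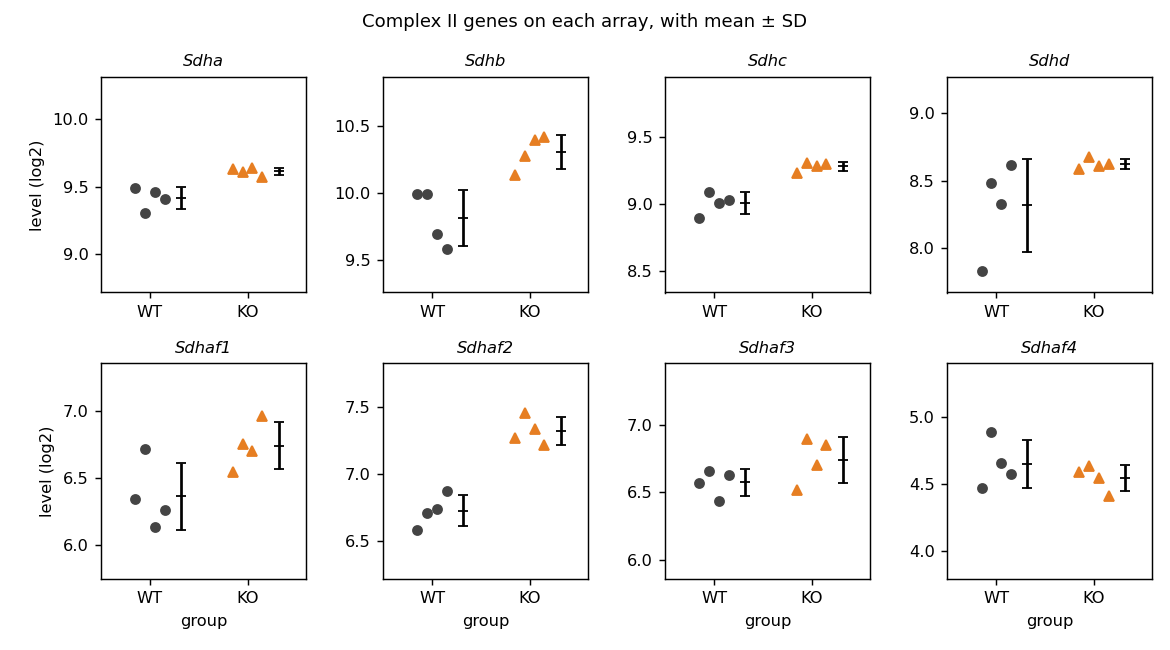
Level (log2, vertical axes of equal span) of the 4 subunit genes and 4 assembly factor genes of complex II on each wild type (WT, circles) and knockout (KO, triangles) array, with mean ± SD. The groups do not overlap for Sdha, Sdhb, Sdhc and Sdhaf2, and overlap for the other 4.

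Complex I subunits are described by arm, a grouping made after the values were seen. The peripheral arm carries the flavin and iron-sulfur clusters that take electrons from NADH, and the membrane arm pumps protons. In the peripheral arm 2 of 15 genes were higher (13.3%) and 0 lower, with a median of 0.00. In the membrane arm 0 of 18 were higher and 4 lower (22.2%), with a median of -0.08 and 15 of the 18 differences negative. All of these genes lay above the median level, where 27.9% of all genes were higher and 10.8% lower. The share higher in the peripheral arm was thus below that of all genes at such levels. The difference between the arms was not tested, and both medians fell with another scaling, to between -0.11 and -0.08 in the peripheral arm and between -0.19 and -0.18 in the membrane arm. With arrays centred on their medians, the peripheral arm had 0 higher and 2 lower. Ndufab1, the acyl carrier protein found in both arms, differed by 0.12 (adjusted p = 0.299).

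In the peripheral arm, Ndufs3, a core subunit near the coenzyme Q site, measured 9.30, 9.39, 9.15 and 9.37 in wild type and 9.59, 9.68, 9.63 and 9.78 in knockout (difference 0.37, SE 0.084, adjusted p = 0.0108). Ndufa7, an accessory subunit, measured 8.55, 8.57, 8.32 and 8.40 in wild type and 8.75, 8.89, 8.73 and 8.89 in knockout (difference 0.35, SE 0.0869, adjusted p = 0.0151). Both had groups apart. The Ndufa7 call was lost under the 3 other scalings (adjusted p = 0.0614 to 0.107) and the Ndufs3 call when arrays were centred (0.0873).

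The subunits that carry the flavin and the iron-sulfur clusters were not called. Ndufv1, which binds NADH and the flavin, differed by 0.00 (adjusted p = 0.988), Ndufv2 by -0.05 (0.62), Ndufs1 by 0.06 (0.523) and Ndufs7 by -0.08 (0.446). Ndufs8, which holds iron-sulfur clusters beside Ndufs7, measured 10.56, 10.47, 10.46 and 10.49 in wild type and 10.31, 10.33, 10.29 and 10.41 in knockout. Its groups were apart, but the difference of -0.16 missed the threshold (adjusted p = 0.121). Ndufa12, an accessory subunit, also had groups apart without a call (difference -0.28, adjusted p = 0.107). The remaining 7 peripheral arm genes, Ndufa2, Ndufa5, Ndufa6, Ndufa9, Ndufs4, Ndufs6 and Ndufv3, had overlapping groups and differences from -0.23 to 0.21.

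The 4 called genes of the membrane arm all fell. Ndufa1, a small subunit where the arms join, measured 7.31, 7.76, 7.52 and 7.61 in wild type and 6.89, 6.78, 6.92 and 6.96 in knockout (difference -0.66, SE 0.103, 1.58-fold lower, adjusted p = 0.00173). Ndufb8, of the distal part of the arm, measured 9.13, 9.20, 8.82 and 8.99 in wild type and 8.29, 8.32, 8.24 and 8.66 in knockout (difference -0.66, SE 0.119, adjusted p = 0.00347). The fourth knockout array was the highest of its group for Ndufb8 and still below every wild type array.

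Ndufb4, also of the distal part, measured 11.16, 11.26, 11.02 and 11.16 in wild type and 10.84, 10.76, 10.78 and 10.89 in knockout (difference -0.33, SE 0.079, adjusted p = 0.013). Ndufa3, of the proximal part, measured 8.70, 8.78, 8.50 and 8.54 in wild type and 8.21, 8.30, 8.33 and 8.36 in knockout (difference -0.33, SE 0.0862, adjusted p = 0.0192). Groups were apart for both genes, and the Ndufa3 call was lost without knockout replicate 1 (adjusted p = 0.0533). The other 14 membrane arm genes had overlapping groups and differences from -0.20 (Ndufb7) to 0.14 (Ndufb3). One of them, Ndufs5, had a wild type replicate 2 value of 6.31 against 7.27 to 7.45 on the other wild type arrays.

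The complex I assembly factors among the members were not called in either direction on the deposited scale. The 7 members, Ndufaf1 to Ndufaf7, differed by -0.38 to 0.27 (adjusted p = 0.0821 to 0.891), with groups that overlapped for each. Ndufaf4, an assembly factor of the Q module, had the largest of these differences: it measured 6.44, 6.80, 6.47 and 6.87 in wild type and 6.02, 6.59, 6.08 and 6.35 in knockout. Ndufaf3, its partner, differed by 0.02 (adjusted p = 0.891). Ndufaf4 was called lower under each of the 3 other scalings (adjusted p = 0.0326 to 0.0444). The same call was made with the replicate block (0.0245) and without knockout replicate 2 (0.0398). Ndufaf2 was called lower after quantile normalization (adjusted p = 0.0429). Other assembly factors of the complex, named differently, were counted apart. Among all genes above the median level 27.9% were higher and 10.8% lower, and of the 10 factors measured 3 were higher (30.0%) and 0 lower. These were Tmem126b (0.46, adjusted p = 0.00801) and Acad9 (0.35, adjusted p = 0.0313), both of the complex that assembles the membrane arm, and Foxred1 (0.43, adjusted p = 0.0114). This count did not hold under other scalings: 0 were higher and 1 lower after quantile normalization or cyclic loess, and 1 was higher and 1 lower with centred arrays.

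Complex III and cytochrome c had 1 call among 9 genes on the deposited scale. Uqcr10, a small subunit of complex III, measured 7.64, 8.23, 7.72 and 7.85 in wild type and 8.32, 8.48, 8.25 and 8.68 in knockout, and its groups came close without overlap at wild type replicate 2. The difference was 0.57 (SE 0.143, 1.49-fold, adjusted p = 0.0157), a second feature of the gene gave 0.55, and the call was lost when arrays were centred (adjusted p = 0.0514). The electron carrying members did not pass on that scale. Uqcrfs1, the Rieske iron-sulfur protein, differed by -0.21 (adjusted p = 0.094), Cyc1, cytochrome c1, by -0.11 (adjusted p = 0.44), and Cycs, cytochrome c itself, by -0.13 (adjusted p = 0.353). The core protein gene Uqcrc1 measured 10.03, 10.19, 10.01 and 10.22 in wild type and 9.81, 9.89, 9.80 and 10.03 in knockout (difference -0.23, adjusted p = 0.0759). Uqcrfs1 and Uqcrc1 were called lower under each of the 3 other scalings (adjusted p = 0.0151 to 0.0381 and 0.0391 to 0.045). The other 4 members, Uqcrb, Uqcrh, Uqcrq and Uqcr11, differed by -0.11 to 0.18 with overlapping groups.

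Complex III assembly factors changed in both directions. Of the 6 measured, 3 were higher, Uqcc1 (0.63, adjusted p = 0.000869), Bcs1l (0.45, adjusted p = 0.0106) and Uqcc3 (0.36, adjusted p = 0.0438), and 2 lower, Uqcc2 (-0.48, adjusted p = 0.00503) and Ttc19 (-0.28, adjusted p = 0.0192). Among all genes above the median level, where 5 of the 6 lay, 27.9% were higher and 10.8% lower. The counts were not tested against these shares. Uqcc1 and Uqcc2 act together in the synthesis of cytochrome b, and Bcs1l inserts the Rieske protein. After quantile normalization 1 was higher and 2 lower, and 1 was lower without knockout replicate 3.

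In complex IV outside the restricted isoforms, Cox7a2l rose the most. It encodes a protein known for joining complex III to complex IV in supercomplexes, though C57BL/6 mice carry a shorter form known to lack this function. It measured 8.24, 8.19, 8.12 and 7.83 in wild type and 8.72, 8.90, 8.81 and 9.02 in knockout, with groups well apart, a difference of 0.77 (SE 0.109, 1.70-fold, adjusted p = 0.00105) and a call in every setting. A second feature of the gene gave 0.96 (SE 0.153).

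Among the 10 subunits made in most tissues 1 was higher, Cox6a1, and 3 were lower, with a median of -0.11. Cox7a2 measured 9.40, 9.51, 9.33 and 9.16 in wild type and 9.05, 8.94, 8.80 and 9.04 in knockout (difference -0.39, SE 0.098, adjusted p = 0.0159). Cox6c measured 11.67, 11.82, 11.78 and 11.78 in wild type and 11.49, 11.50, 11.40 and 11.42 in knockout (difference -0.31, SE 0.0722, adjusted p = 0.0109). Cox7b measured 12.04, 12.12, 11.99 and 12.11 in wild type and 11.76, 11.78, 11.81 and 11.81 in knockout (difference -0.28, SE 0.069, adjusted p = 0.0159). These 3 genes encode small membrane-spanning subunits around the catalytic core; groups were apart for each, and all 3 calls were made in every setting.

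Cox4i1, the common form of the largest nuclear-encoded subunit, had groups apart without a call on the deposited scale, at 9.69, 9.83, 9.75 and 9.75 in wild type and 9.47, 9.47, 9.39 and 9.69 in knockout (difference -0.25, adjusted p = 0.0535). It was called lower after quantile normalization (adjusted p = 0.037), with centred arrays (0.0284) and after cyclic loess (0.0254). The same call was made among genes above the median level (0.0295), with trend and robust variance (0.0244) and without knockout replicate 4 (0.027). The matrix-facing subunits Cox5a and Cox5b, the intermembrane space subunit Cox6b1, and Cox8a and Ndufa4 had overlapping groups and differences from -0.12 to 0.05.

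Complex IV assembly factors had 7 of 22 higher (31.8%) and 3 lower (13.6%) on the deposited scale. These shares were near the 27.9% and 10.8% of all genes above the median level, where 21 of the 22 lay. Cox14, which binds newly made Cox1 protein, measured 6.68, 6.87, 6.86 and 6.88 in wild type and 7.56, 7.76, 7.71 and 7.72 in knockout (difference 0.87, SE 0.082, adjusted p = 0.000124). Surf1, an early assembly factor, differed by 0.69 (adjusted p = 0.000192) and the copper chaperone Sco1 by 0.62 (adjusted p = 0.00136). The balance turned to 3 higher and 6 lower after quantile normalization and 4 and 5 after cyclic loess, and was 4 and 3 with centred arrays. Without knockout replicate 4, 4 were higher, and the number lower was 1 without wild type replicate 1 or 2 and 0 without knockout replicate 1 or 3.

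ATP synthase genes that were called all fell, and none of the called genes encodes a catalytic subunit. Atp5o, a peripheral stalk subunit, measured 10.31, 10.29, 10.01 and 10.19 in wild type and 9.72, 9.83, 9.80 and 9.87 in knockout (difference -0.40, SE 0.088, adjusted p = 0.00958). Atp5j2, a small membrane subunit, measured 10.77, 10.93, 10.73 and 10.83 in wild type and 10.42, 10.40, 10.38 and 10.49 in knockout (difference -0.39, SE 0.0752, adjusted p = 0.00473). Both had groups apart and were called in every setting.

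Atp5l, a membrane subunit that helps hold ATP synthase dimers, measured 8.28, 8.47, 8.22 and 8.34 in wild type and 7.99, 8.05, 8.02 and 8.11 in knockout (difference -0.29, SE 0.0795, adjusted p = 0.0247). Atp5e, the epsilon subunit of the central stalk, measured 8.59, 8.72, 8.62 and 8.65 in wild type and 8.33, 8.44, 8.36 and 8.51 in knockout (difference -0.23, SE 0.075, adjusted p = 0.0435). Groups were apart for both, but these were the less firm calls. Atp5e was not called when any of 7 arrays was left out (adjusted p = 0.0503 to 0.111), and Atp5l was not called without wild type replicate 2 or knockout replicate 1, 2 or 3 (0.0562 to 0.0659). Leaving out any of the same 4 arrays gave 2 lower genes in ATP synthase in place of 4.

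The catalytic and proton-carrying subunits did not pass the threshold. Atp5b, the catalytic beta subunit, measured 11.81, 11.98, 12.00 and 12.06 in wild type and 11.84, 11.85, 11.86 and 11.75 in knockout (difference -0.14, adjusted p = 0.214), and Atp5a1, the alpha subunit, differed by 0.05 (adjusted p = 0.665). The 3 genes Atp5g1, Atp5g2 and Atp5g3 encode the same mature subunit c of the rotating ring, and differed by 0.18 (adjusted p = 0.114), 0.15 (0.16) and -0.03 (0.839). Atp5g2 had groups apart, at 11.21, 11.26, 11.16 and 11.16 in wild type and 11.27, 11.40, 11.28 and 11.44 in knockout.

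All 5 small membrane subunits had negative differences, with a median of -0.29. Of those not called on the deposited scale, Atp5k differed by -0.35 (adjusted p = 0.0893), Atp5mpl by -0.27 (adjusted p = 0.0884) and Atp5md by -0.06 (adjusted p = 0.747). Atp5k was called lower with centred arrays (0.0485) and without wild type replicate 4 (0.0434), and Atp5mpl after cyclic loess (0.0372). In the peripheral stalk, Atp5h had groups apart without a call (-0.19, adjusted p = 0.0883), and Atp5j and Atp5pb differed by -0.02 and 0.06. The central subunits Atp5c1 and Atp5d differed by 0.10 and -0.07. Of 4 assembly factors of ATP synthase, 1 was higher (25.0%, against 27.9% of all genes above the median level) and 0 lower. The higher gene was Atpaf1, a chaperone of the beta subunit, by 0.52 (adjusted p = 0.00527).

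**Figure D5:**
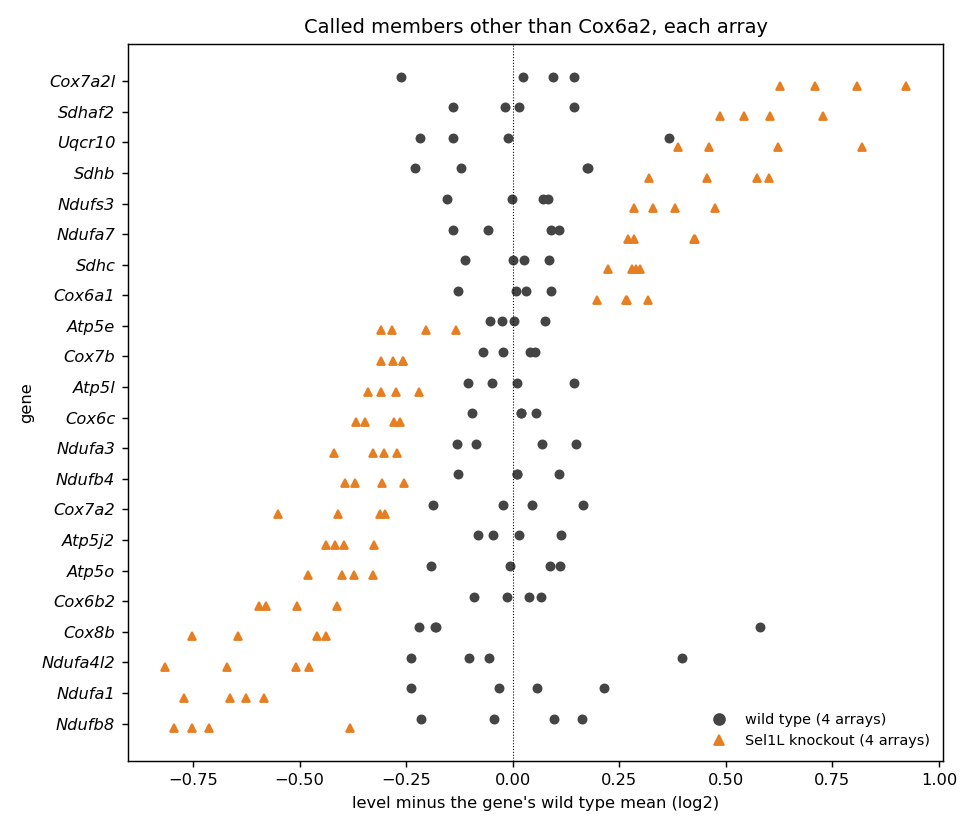
Level on each array minus the wild type mean of the gene (log2, horizontal axis) for the 22 called genes other than Cox6a2 (vertical axis), with circles for 4 wild type and triangles for 4 knockout arrays. The knockout arrays lie wholly to the right for 8 genes, led by Cox7a2l, and wholly to the left for 14, led by Ndufb8.

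Of 18 genes of coenzyme Q synthesis and electron entry, 7 were higher (38.9%) and 1 lower, against 16.1% and 12.6% of all genes and 27.9% and 10.8% of those above the median level. The lower gene was Coq10a (-0.57, adjusted p = 0.00706). Among the electron entry genes, Etfa (-0.11, adjusted p = 0.448) and Gpd2 (-0.32, adjusted p = 0.144) were not called. The list median was 0.27, and after the other scalings 4 or 5 were higher and 2 or 3 lower. Etfb, a subunit of the flavoprotein that collects electrons from fatty acid oxidation, rose by 0.53 (adjusted p = 0.00113), Coq3, a methyltransferase of coenzyme Q synthesis, by 0.55 (adjusted p = 0.00173), and Dhodh, a pyrimidine enzyme that reduces coenzyme Q, by 0.53 (adjusted p = 0.00228).

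Upstream of complexes I and II, the 21 genes of pyruvate dehydrogenase and the citric acid cycle had 4 higher (19.0%) and 3 lower (14.3%). Among all genes above the median level the shares were 27.9% and 10.8%. Pdk4, a kinase that inhibits pyruvate dehydrogenase, measured 8.00, 7.22, 7.62 and 5.93 in wild type and 10.31, 10.42, 10.82 and 9.27 in knockout, a difference of 3.01 (SE 0.445, 8.08-fold, adjusted p = 0.00128). The fourth array was the lowest of each group for Pdk4, and the groups were apart. The malate dehydrogenase genes Mdh2, of mitochondria, and Mdh1, of the cytosol, rose by 0.54 (adjusted p = 0.000649) and 0.55 (adjusted p = 0.00266). Suclg1 was also higher (0.38, adjusted p = 0.00806). The 3 lower genes were Pdk1, of the same kinase family as Pdk4 (-0.62, adjusted p = 0.0121), Idh3a (-0.46, adjusted p = 0.00976) and Suclg2 (-0.31, adjusted p = 0.0396). After quantile normalization 4 of the list were higher and 5 lower, and after cyclic loess 4 and 7.

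The known regulators of mitochondrial biogenesis and mitochondrial DNA expression had 3 of 15 higher (20.0%) and 0 lower. The shares were 16.1% and 12.6% of all genes, and 27.9% and 10.8% of those above the median level, where 14 of the 15 lay. After quantile normalization 2 were higher and 1 lower, with centred arrays 2 and 2, and after cyclic loess 2 and 0. Ssbp1, the single-strand binding protein of mitochondrial DNA, rose by 0.70 (adjusted p = 0.000415), Twnk, its helicase, by 0.69 (adjusted p = 0.00781), and Tfam, which packs and transcribes it, by 0.35 (adjusted p = 0.0425), a call lost in 8 of 16 other settings. Of 12 inner membrane architecture genes, 3 were higher (25.0%) and 0 lower: Phb2, a prohibitin, by 0.44 (adjusted p = 0.00413), Yme1l1, a protease, by 0.44 (adjusted p = 0.0134), and Stoml2, a membrane scaffold, by 0.29 (adjusted p = 0.0328). The share higher was near the 27.9% of all genes above the median level, and with cyclic loess 2 of these 12 genes were higher and 3 lower. Among 9 adenine nucleotide carriers, porins and uncoupling proteins, 1 was higher (11.1%, against 16.1% of all genes) and 0 lower. The higher gene was the outer membrane porin gene Vdac3 (0.80, adjusted p = 0.000289).

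Markers of pancreatic cell types moved with the groups as well. Of 8 acinar markers measured, 0 were higher and 5 lower (62.5%), against 10.8% of all genes above the median level called lower. Acinar means per array were 12.79 to 12.94 in wild type and 12.45 to 12.52 in knockout. Sums of the log2 levels, which restate these means, were 102.35 to 103.55 and 99.58 to 100.13. Of 6 endothelial markers, 3 were higher and 0 lower, with means of 7.25 to 7.49 in wild type and 7.59 to 7.80 in knockout, but 1 was higher without wild type replicate 2 or knockout replicate 3 or 4, and after quantile normalization or cyclic loess. Duct and beta cell lists each had 1 lower gene and 0 higher, the list of alpha, delta and PP cells 1 higher, and the lymphocyte list 1 lower. Stellate cell, macrophage and adipocyte lists had 0 calls; macrophage means spanned 6.27 to 8.84 in wild type and 7.45 to 8.59 in knockout. The part of cell composition in the differences of the respiratory chain genes was not tested.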

How the data were processed

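The deposited log2 values of 8 arrays came from RMA, the robust multi-array average, run by the authors (per the submitters' processing notes). The RMA version, chip definition and genome build were not given in the sources used here. Of 35556 features, 21218 had 1 gene symbol, 1881 had several and 12457 had none in the platform annotation, and those with 1 symbol gave 18820 genes (2398 features left out). Genotype was fitted with limma 3.58.1 in R 4.3.3 (lmFit and eBayes, 6 residual degrees of freedom), with Benjamini-Hochberg adjustment over all genes and a threshold of 0.05. No filter on dim genes was used, and the number of arrays limits the precision. Levels were not compared between genes. On simulated data with 200 of 18820 genes changed, 45% of changes of 0.5 and 87% of changes of 1 on the log2 scale were recovered. There were 4 false calls of 136. Far fewer genes changed there than the 28.7% called in the real arrays, so these rates cannot be carried over to this comparison.

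The members and all lists were chosen with earlier results of these data known. Named genes were Sel1l, called members, in each complex the member of highest level and the uncalled member of largest difference, tissue-restricted and electron-carrying members, the subunit c genes, and up to 3 called genes of each pathway list by p. Other genes named were chosen after their values were seen. Alternatives were 3 other scalings, genes above the median level, array weights, variance estimated with trend and robustly, averaging a gene's features, a replicate block and leaving out each array. Promoters came from RefSeq (GRCm38.p6), in which Cox6a2 and Sdhc were not matched. Tables and figures were made with Python 3.11.15.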

Additional observations from a re-analysis of the deposited data

Results flagged for a closer look

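In 4 of 114 groups of 4 values checked, 1 array lay far from the other 3; chance gives about 5% of such groups. For Atp5b, knockout replicate 4 measured 11.75 against 11.84 to 11.86 on the other knockout arrays. Cox7b2 measured 1.95 in knockout replicate 1 against 2.20 to 2.24. For Cox8b, wild type replicate 1 measured 4.70 against 3.90 to 3.94. Sel1l itself was lowest in knockout replicate 4, at 11.45 against 11.66 to 11.70.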

How the results depend on the processing

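No called member changed direction in the 16 other settings. Of 793 pairs of a named member and a setting, 723 kept their side of the threshold, 40 lost a call and 30 gained one, and 13 of the 23 called members never lost theirs. Members called higher and lower numbered 6 and 18 after quantile normalization, 3 and 22 with centred arrays, 6 and 21 after cyclic loess, 8 and 14 with the replicate block, and 7 to 10 and 10 to 14 when 1 array was left out. After quantile normalization the median of complex I subunits was -0.14 and that of complex II 0.21, and after cyclic loess -0.12 and 0.19. With centred arrays the medians were -0.16 for complex I subunits, -0.18 for complex I assembly, 0.18 for complex II, -0.21 for complex III, -0.23 for complex IV, -0.18 for ATP synthase and -0.16 for all members. Among genes above the median level only, complex IV had a median of -0.048. Leaving out 1 array gave medians of -0.08 to -0.04 for complex I subunits, -0.11 to 0.02 for complex I assembly, 0.23 to 0.33 for complex II, -0.15 to -0.04 for complex III, -0.15 to -0.08 for complex IV, -0.19 to -0.060 for ATP synthase and -0.08 to -0.03 for all members. The lowest ATP synthase median came without wild type replicate 1, and that of complex I assembly turned positive without knockout replicate 1. Over all genes, 3027 were higher and 2379 lower, against 1954 and 1966 after quantile normalization, 1868 and 4014 with centred arrays and, among 9410 genes above the median level, 3013 and 1163; 1517 were lower without knockout replicate 3. Replicates of the same number correlated at 0.22, 0.15, -0.27 and -0.02 in their deviations. With 4 arrays per group this cannot decide whether the numbers pair the arrays, and the labels do not say. The replicate block ended the calls of Atp5e (limma adjusted p = 0.0782) and Cox6a1 (0.0708), and 8 members were higher and 14 lower with it. Cox6b2, Cox8b and Ndufa4l2, below the median level, had a value in 15 of the settings.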
